A study of Homo sapiens with 4 samples.

Results

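The genes described here are those of the apoptosome and its partners: CASP9, APAF1 and CYCS, the other initiator caspases CASP8 and CASP2, the caspase inhibitor XIAP, and its antagonists DIABLO and HTRA2. They are 8 of the 61541 gene rows counted, taken by symbol. The set was chosen by the CASP9 counts of these same nanoparticle and PBS libraries, so the fold changes of the 8 genes between those groups are given as a description and carry no p-value.

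RNA came from cultures of H1299, a line from a human lung carcinoma, as 4 libraries of polyadenylated RNA. Cells in 2 libraries had been treated with ginseng nanoparticles and those in the other 2 with phosphate-buffered saline (PBS). Titles of the treated samples also say control, against their treatment label, which was followed here. The labels give no dose, exposure time or plant part, all groups share a single cell line, and nothing says that replicates came from separate cultures, so every error is that between these 4 libraries and may be technical.

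Apoptosis can be started from the mitochondrion. Cytochrome c released from the intermembrane space binds APAF1, which then assembles into a wheel-shaped complex, the apoptosome, that recruits and activates procaspase-9. Active caspase-9 cleaves the executioner caspases. XIAP binds and blocks caspase-9, and DIABLO and HTRA2 leave the mitochondrion to bind XIAP and lift that block. These are events of protein release and assembly, whereas the values here are mRNA levels. Fewer cells with a transcript and less transcript per cell cannot be told apart in such bulk samples.

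The libraries held 24979081 and 24863313 counts on genes with nanoparticles and 22252686 and 22456882 with PBS. The line markers VIM, KRT8 and KRT18 were each at 587 CPM (counts scaled by library size) or more in every library. All 3 were called lower with nanoparticles, as were 0.83% of all tested genes. Their log2 fold changes were small, at -0.092, -0.11 and -0.16. The part of this in the values below was not tested. The 8 markers of leucocytes, endothelium, alveolar cells and hepatocytes summed to 11 and 15 counts in the nanoparticle libraries and to 8 and 6 in the PBS libraries. PTPRC and SFTPC were at 0 in all 4.

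CASP9, the initiator caspase that the apoptosome activates, was the member that differed most. It had 1229 and 1103 counts in the nanoparticle libraries, against 569 and 619 in the PBS libraries. Scaled for library size, these were 49.2 and 44.3 CPM with nanoparticles and 25.6 and 27.7 CPM with PBS. Every nanoparticle library lay above every PBS library. The means were 46.8 ± 3.42 CPM with nanoparticles and 26.6 ± 1.498 CPM with PBS (SD, n = 2 each), 75.5% higher with nanoparticles. On the log2 scale the fitted difference was 0.81, with a standard error (SE) of 0.063. The coefficient of variation between replicates was 7.31% with nanoparticles and 5.62% with PBS, and the counting error of a single library was between 2.85% and 4.19%.

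**Figure D1:**
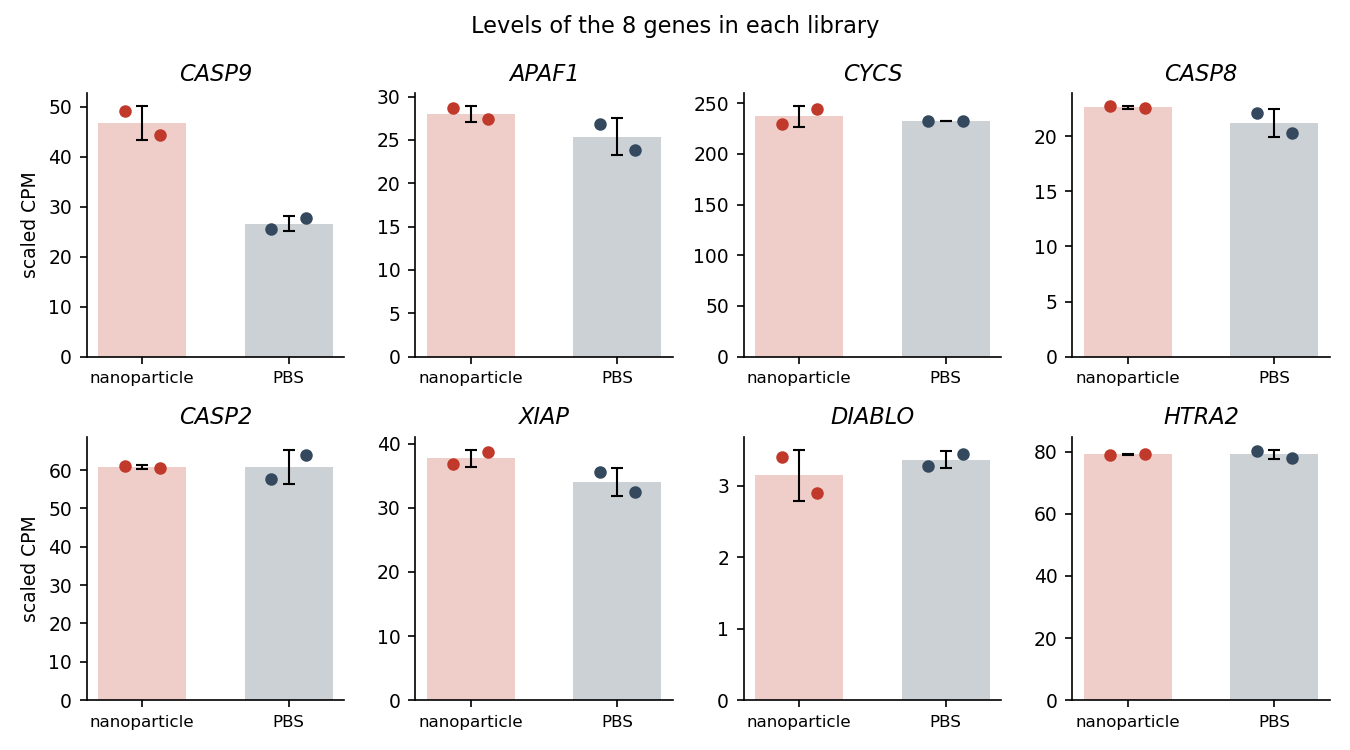
Scaled CPM (vertical axes, each from 0) of the 8 genes in nanoparticle and PBS libraries; points are libraries, bars are means and error bars are SDs of 2 libraries. CASP9 stands at 49.2 and 44.3 CPM with nanoparticles, above 25.6 and 27.7 CPM with PBS, while the other genes differ by 10.8% of the PBS mean or less.

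Over all 15778 genes tested, 2.58% were called at an adjusted p below 0.05 (edgeR quasi-likelihood test), 1.75% as higher and 0.83% as lower with nanoparticles. Since the set was chosen by the CASP9 values of this comparison, no call is counted for its members. Among the 11107 genes with a mean of at least 5 CPM, HMOX1 and MT-ND6 had a larger log2 fold change than CASP9, and none had a decrease of its size. Over 14 alternative analyses the log2 fold change of CASP9 was between 0.73 and 0.88. It was 0.75 with PBS replicate 1 left out and 0.87 with PBS replicate 2 left out, fits in which no gene at all was called, the genes named further on included.

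**Figure D2:**
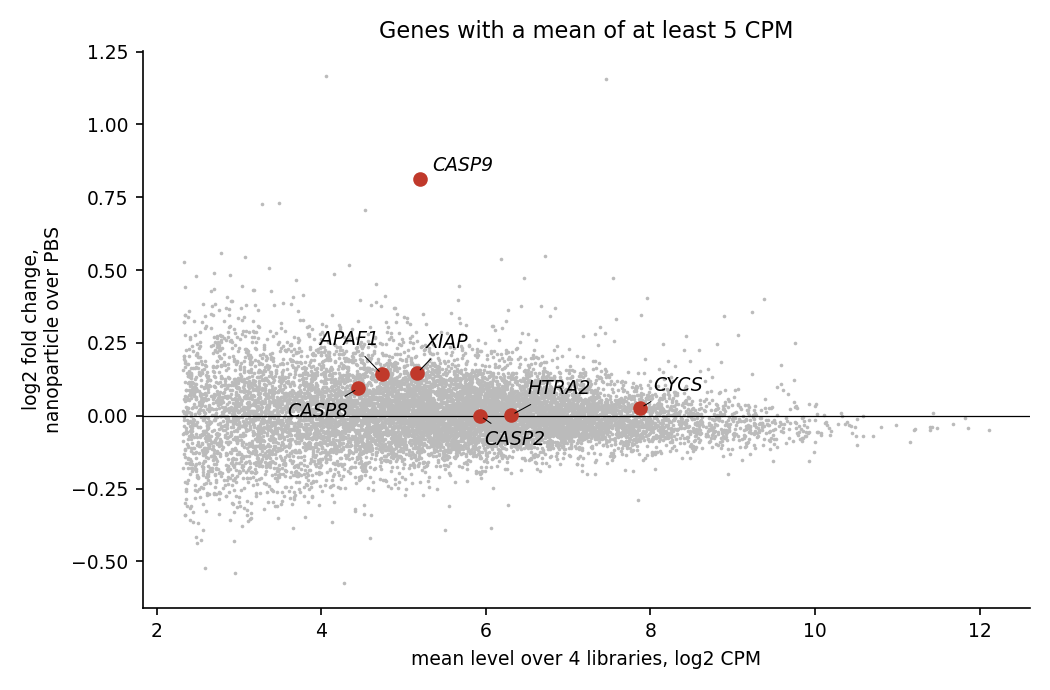
Log2 fold change of nanoparticle over PBS (vertical axis) against the mean level in log2 CPM over 4 libraries (horizontal axis) for the 11107 genes with a mean of at least 5 CPM; red points are the 7 members above that level (DIABLO is below it). CASP9 lies at 0.81, apart from APAF1, XIAP, CASP8, CYCS, HTRA2 and CASP2, which lie within 0.15 of 0.

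CASP9 (ENSG00000132906) lies on the minus strand of chromosome 1 from 15490832 to 15526534 (GRCh38, GENCODE 29). The annotation holds 11 transcripts of it, 8 of them protein-coding. A short protein isoform of caspase-9 that lacks the catalytic part is known to oppose the full-length enzyme, and counts per gene do not separate the isoforms. Its principal transcript has 4463 bases and 52.8% GC, against medians of 2961 bases and 48.6% over tested genes. Fold changes went with transcript length across genes (Spearman's rank correlation 0.43 over 11081 genes of at least 5 CPM, which share libraries). After removal of the length trend, the log2 fold change of CASP9 was 0.79 (SE 0.063), and with the trends of length and GC content removed it was 0.80 (SE 0.061).

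The sequence before the outer CASP9 start site in RefSeq is shown because its GC boxes, the hexamer GGGCGG bound by SP1-type factors, set CASP9 apart from the other members by number. It covers 151 bases with 72.2% GC, chr1:15524890-15525040 on the minus strand of GRCh38.p14. The start site itself is at 15524790. The stretch stops where an annotated exon begins, so the bases next to the start site are not shown. It thus holds fewer GC boxes than the whole window of that start site, described below. It lies outside every annotated CASP9 exon, upstream of 10 transcripts and in an intron of the remaining 1. Capitals mark the GC boxes, 6 matches in 4 runs, all on the strand shown, and neighbouring matches within a run may share a base.
CASP9: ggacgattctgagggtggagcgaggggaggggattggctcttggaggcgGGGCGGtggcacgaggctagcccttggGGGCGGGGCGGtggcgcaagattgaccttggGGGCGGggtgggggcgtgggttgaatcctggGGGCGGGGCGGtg

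RefSeq lists 18 start windows for the 8 members, each of 250 bases before and 50 after a start site. Both strands were searched and overlapping matches were counted. The CASP9 windows held 8 and 9 GC boxes, and the windows of the other members held between 0 and 4. Of 35116 such windows over all genes, 0.812% held at least 8 and 0.419% at least 9, while 45.0% held at least 1. The core of the antioxidant response element, TGACNNNGC, the site of NRF2, was in 13.3% of all windows. It was in 3 of the 18 member windows (XIAP and DIABLO) and in neither CASP9 window. The XIAP windows with a match overlap each other and may hold the same site. A match describes letters and not binding, and no factor was measured here.

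The neighbours of CASP9 were examined because a read can be given to the wrong gene where genes overlap. Exons of CELA2B, a pancreatic elastase gene on the opposite strand, share 106 bases with CASP9 exons, 2.01% of them. CELA2B had 0 counts in all 4 libraries, as had CELA2A. DNAJC16, which encodes a DnaJ-domain protein, starts 279 bases from the outermost annotated start of CASP9 and runs away from it on the opposite strand. It had 22.2 and 22.0 CPM with nanoparticles and 19.7 and 21.0 CPM with PBS, a log2 fold change of 0.12 with an SE of 0.071 (edgeR quasi-likelihood test, adjusted p = 0.407). The groups of DNAJC16 did not overlap, as was the case for 46.9% of all tested genes. AGMAT, an agmatinase-family gene, had 34 and 18 counts with nanoparticles and 30 and 28 with PBS. CTRC, SCARNA21B and ENSG00000272510, the other annotated genes within 50 kb, had 2 counts or fewer in every library.

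APAF1, the scaffold of the apoptosome, had 28.6 and 27.4 CPM in the nanoparticle libraries and 26.9 and 23.9 CPM in the PBS libraries. The nanoparticle libraries lay above the PBS libraries by a small margin. The log2 fold change was 0.14 (SE 0.068), with a 95% interval from -0.00067 to 0.28. With PBS replicate 1 left out it was 0.23, and with PBS replicate 2 left out 0.059. APAF1 has a long transcript of 7055 bases, and with the length trend removed its log2 fold change was 0.088 (SE 0.068). APAF1 exons share 9.48% of their bases with ANKS1B on the opposite strand, which had between 71 and 74 counts.

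CYCS, which encodes somatic cytochrome c, the electron carrier that triggers assembly, had 230.0 and 244 CPM in the nanoparticle libraries and 232.8 CPM in each PBS library. The groups overlapped. The log2 fold change was 0.027 with a 95% interval from -0.045 to 0.098. CYCS has 42 annotated pseudogenes in the files, whose rows together held 10 and 11 counts with nanoparticles and 12 and 7 with PBS, against 5178 to 6078 per library for CYCS itself. Reads that align equally to a pseudogene would be in neither row.

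The initiator caspases outside the apoptosome had smaller differences than CASP9. CASP8, which is activated at death receptors, had 22.7 and 22.5 CPM with nanoparticles and 22.1 and 20.3 CPM with PBS. Its nanoparticle libraries lay just above its PBS libraries, with a log2 fold change of 0.094 (SE 0.071, 95% interval from -0.054 to 0.24). Without PBS replicate 1 the log2 fold change was 0.16, and without PBS replicate 2 it was 0.033. CASP2, which is activated on the PIDDosome, had 61.2 and 60.5 CPM with nanoparticles, between the PBS values of 57.6 and 64.0 CPM. The 95% interval of its log2 fold change ran from -0.10 to 0.10, and the value was -0.076 when PBS replicate 1 was left out and 0.077 when PBS replicate 2 was.

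XIAP, the X-linked inhibitor that blocks caspase-9 directly, had 36.8 and 38.7 CPM with nanoparticles and 35.6 and 32.5 CPM with PBS. The groups did not overlap, and the log2 fold change was 0.15 (SE 0.059, unadjusted 95% interval from 0.024 to 0.27). Leaving out PBS replicate 1 gave 0.21, and leaving out PBS replicate 2 gave 0.082. The XIAP transcript of 8591 bases is the longest of the 8, and with the length trend removed its log2 fold change was 0.078 (SE 0.058).

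DIABLO, the XIAP antagonist also known as SMAC, had the lowest counts of the set, 85 and 72 with nanoparticles and 73 and 77 with PBS. Counting error alone was between 10.8% and 11.8% per library, and the 95% interval of the log2 fold change, from -0.44 to 0.24, was the widest of the 8. In GENCODE 29 its exons share 29.6% and 16.8% of their bases with a pair of genes on the same strand, ENSG00000284934 and ENSG00000256861, which had 0 counts. DIABLO exons also share 14.3% of their bases with B3GNT4 on the opposite strand, which had between 25 and 37 counts. Reads in shared exons can be left out as ambiguous, so the level of DIABLO may be understated in every library.

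HTRA2, a mitochondrial serine protease that also binds XIAP, had 79.1 and 79.3 CPM with nanoparticles and 80.2 and 78.0 CPM with PBS. The nanoparticle values lay between the PBS values, and the 95% interval of the log2 fold change ran from -0.083 to 0.087. HTRA2 exons overlap those of AUP1 (16.1%) and LOXL3 (20.8%) on the opposite strand, and no source used here says whether reads were counted by strand. AUP1 had between 5502 and 6101 counts, more than HTRA2.

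Of the 8 members, 4 had nanoparticle libraries entirely above the PBS libraries (CASP9, APAF1, CASP8 and XIAP) and none entirely below. Over all tested genes the shares were 23.7% above and 23.2% below. The median log2 fold change of the members was 0.060, beside 0.00056 over all tested genes. CASP9, by which the set was chosen, is in both the count and the median, so neither is evidence about the set. Of the 4, CASP9 (4463 bases), APAF1 (7055) and XIAP (8591) have longer transcripts than the tested median of 2961, while CASP8 (2930) does not. Fold changes went with transcript length across genes, as given above.

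Levels were compared between genes per length, as TPM (counts divided by the length of the principal transcript and scaled to a common total). CYCS was the most abundant, at 145 ± 6.50 TPM with nanoparticles and 139 ± 0.519 TPM with PBS (SD, n = 2 each, here and for the other levels). HTRA2 followed at 83.6 ± 0.369 TPM with nanoparticles and 82.0 ± 1.96 TPM with PBS. CASP2 came next, at 36.0 ± 0.205 TPM with nanoparticles and 35.3 ± 2.49 TPM with PBS. These 3 genes kept their places in both groups. CASP9 had 26.2 ± 1.86 TPM with nanoparticles, the fourth level of the set, and 14.7 ± 0.768 TPM with PBS, the fifth. CASP8 had 19.3 ± 0.063 TPM with nanoparticles and 17.7 ± 1.14 TPM with PBS. CASP9 and CASP8 thus stood in opposite order in the 2 groups, without overlap between the genes in either. At the low end XIAP had 11.0 ± 0.415 TPM with nanoparticles and 9.74 ± 0.668 TPM with PBS. APAF1 had 9.93 ± 0.297 TPM with nanoparticles and 8.84 ± 0.769 TPM with PBS. The PBS libraries of XIAP (10.2 and 9.27 TPM) and APAF1 (9.38 and 8.29 TPM) overlapped, so their order there is not beyond the spread. DIABLO was lowest at 5.35 ± 0.597 TPM with nanoparticles and 5.61 ± 0.172 TPM with PBS.

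This order depends on the length used. With the union of all exons as length, a choice made after seeing the data, CASP9 ranked 3 of 8 with nanoparticles, above CASP2, and 4 of 8 with PBS, above CASP8.

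Levels of CASP9 were also set against those of its partners within each library. The ratio of CASP9 to APAF1 levels in TPM was 2.71 and 2.56 in the nanoparticle libraries, against 1.504 and 1.83 in the PBS libraries. The ratio of CASP9 to XIAP was 2.57 and 2.205 with nanoparticles and 1.38 and 1.64 with PBS. CASP9 exceeded CASP8 in both nanoparticle libraries (ratios of 1.42 and 1.29) and was below it in both PBS libraries (0.761 and 0.897). This crossing rests on the principal transcript lengths. With the union of all exons as length, mean CASP9 was above CASP8 with nanoparticles (8.87 against 3.12 CPM per kb) and with PBS (5.06 against 2.92 CPM per kb). The ratio of CYCS to APAF1 overlapped, at 13.8 and 15.4 with nanoparticles and 14.9 and 16.8 with PBS. The ratio of HTRA2 to XIAP was 7.79 and 7.43 with nanoparticles and 8.16 and 8.69 with PBS. The ratio of DIABLO to XIAP also overlapped, at 0.540 and 0.437 with nanoparticles and 0.538 and 0.619 with PBS. That of CASP9 to CASP2 was 0.761 and 0.694 with nanoparticles and 0.420 and 0.409 with PBS. The ratios of CASP9 to its partners carry the gene by which the set was chosen. These ratios use the same counts as the fold changes and are not separate evidence.

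Genes that act with the apoptosome were followed in 7 lists of 38 genes drawn up by textbook role, of which 30 passed the filter on low counts. Of these 30, 1 was called higher and 1 lower, against 1.75% higher and 0.83% lower (2.58% in all) over all tested genes, and their median log2 fold change was -0.0063. The 8 genes left out by the filter, all with 11 counts or fewer per library, were CASP1, CASP5, CASP10, CASP14, BIRC7, BIRC8, NAIP and XAF1, the last being an antagonist of XIAP.

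Among the other genes of the inhibitor of apoptosis (IAP) family, BIRC6, a very large ubiquitin-conjugating enzyme known to target caspases, DIABLO and HTRA2 for degradation, was called higher. It had 71.8 and 77.4 CPM with nanoparticles and 59.9 and 60.5 CPM with PBS. The groups stood apart by more than their spread, with a log2 fold change of 0.31 and an SE of 0.046 (edgeR adjusted p = 0.000685). The BIRC6 transcript has 15703 bases, and with the length trend removed the log2 fold change was 0.19 (SE 0.043, edgeR adjusted p = 0.0384). BIRC3, which encodes cIAP2, had 422 and 480.5 CPM with nanoparticles and 407 and 416 CPM with PBS, with a log2 fold change of 0.13 (SE 0.040, edgeR adjusted p = 0.0857). This rested on nanoparticle replicate 2: without it the log2 fold change was 0.038 (edgeR adjusted p = 0.779), and without nanoparticle replicate 1 it was 0.22 (edgeR adjusted p = 0.00535). BIRC3 was called in 4 of 14 alternatives. BIRC2 and BIRC5, which encodes survivin, were the other tested members and had overlapping groups.

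Of 6 genes that act on the apoptosome, PTMA was called lower. It encodes prothymosin alpha, which is known to inhibit apoptosome formation. PTMA had 675 and 672 CPM with nanoparticles and 729.0 and 728.8 CPM with PBS, a log2 fold change of -0.11 (SE 0.024, edgeR adjusted p = 0.0133). Its transcript is short, 1221 bases, and with the length trend removed the log2 fold change was -0.057 (edgeR adjusted p = 0.301). It was also not called without either nanoparticle library. PTMA has 12 pseudogene rows with 90 and 89 counts with nanoparticles and 86 and 98 with PBS in all. ANP32A, which promotes apoptosome activity, had 277 and 278 CPM with nanoparticles and 292 and 288 CPM with PBS (log2 -0.062, SE 0.030, edgeR adjusted p = 0.301).

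None of the remaining lists had a called member. Among the other proteins of the intermembrane space, ENDOG, a mitochondrial endonuclease, had 32.0 and 30.7 CPM with nanoparticles and 36.4 and 34.6 CPM with PBS (log2 -0.18, SE 0.058, edgeR adjusted p = 0.113). AIFM1, the apoptosis-inducing factor, had a log2 fold change of 0.067 (SE 0.036). The PIDDosome scaffold PIDD1 had a log2 fold change of 0.086 (SE 0.075), and its adaptor CRADD, which joins it to CASP2, -0.081 (SE 0.14).

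For the death receptor complex, 8 of 8 genes were tested and their median log2 fold change was -0.0063. RIPK1, a kinase of that complex, had 101 and 100.4 CPM with nanoparticles and 93.4 and 94.8 CPM with PBS (log2 0.099, SE 0.037, edgeR adjusted p = 0.175), and FADD, the adaptor that brings in CASP8, had a log2 fold change of -0.053 (SE 0.051). Among the caspase substrates and DNA fragmentation factors, DFFB, the caspase-activated nuclease, had 8.28 and 8.48 CPM with nanoparticles and 6.79 and 7.38 CPM with PBS (log2 0.24, SE 0.11, edgeR adjusted p = 0.26). ACIN1, a chromatin condensation factor cleaved in apoptosis, had a log2 fold change of 0.062 (SE 0.030). CASP4, an inflammatory caspase and the tested member of the remaining caspases, had overlapping groups (log2 0.0059, SE 0.056).

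**Figure D3:**
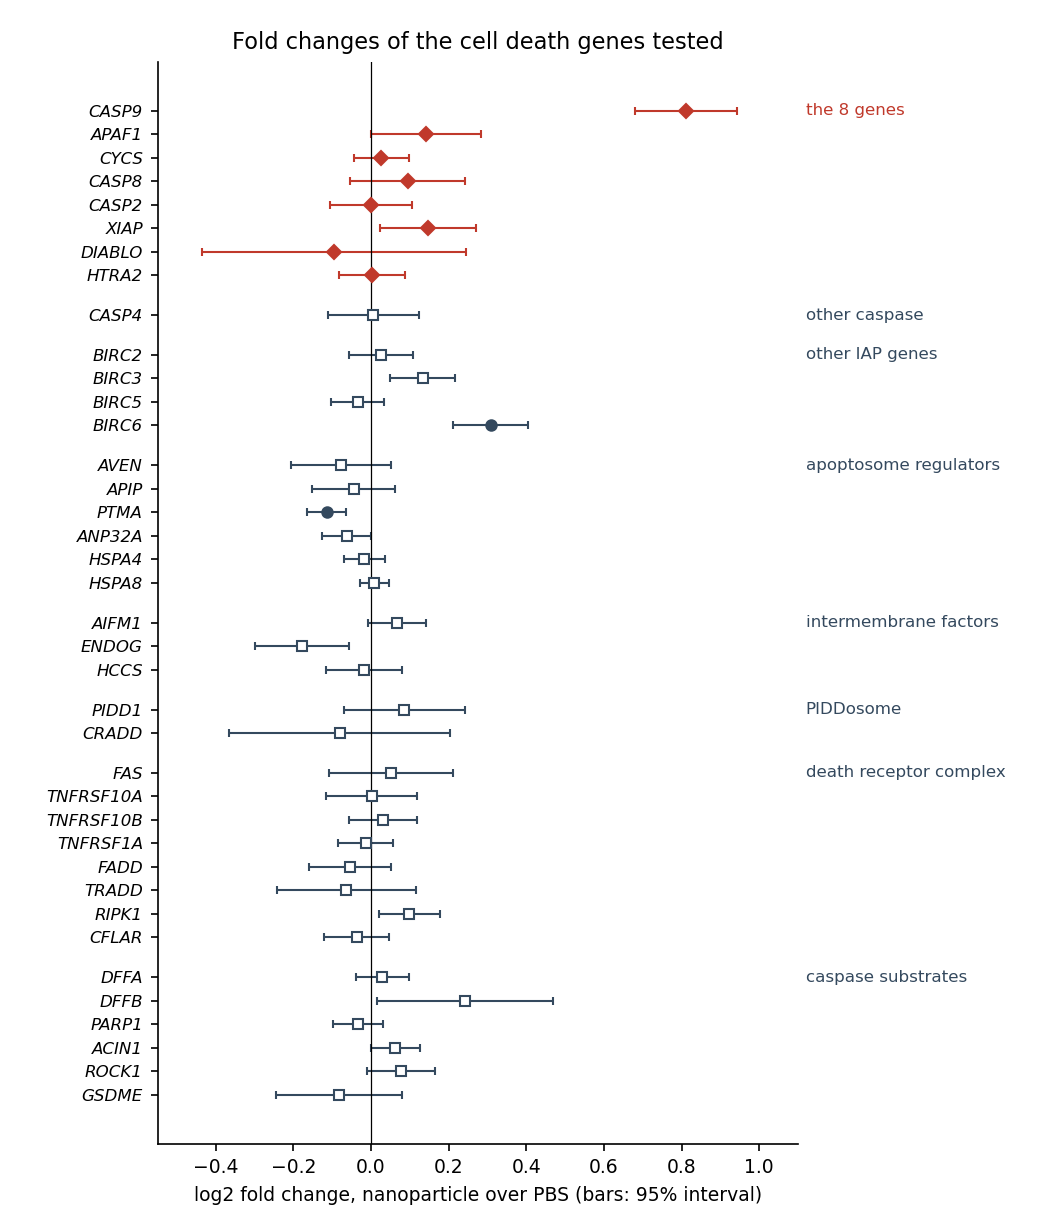
Log2 fold change of nanoparticle over PBS with 95% intervals for the 8 genes (red diamonds) and the 30 tested genes of the surrounding lists (blue); filled blue circles were called at an adjusted p of 0.05 and open squares were not. CASP9 stands at 0.81, the next being BIRC6 at 0.31, and PTMA at -0.11 is the list gene called lower.

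The pattern of CASP9 over the 4 libraries was compared with that of named genes of at least 5 CPM. The measure was the Euclidean distance between log2 CPM values centred on each gene's mean. Genes with a clone name, a LINC name or only an Ensembl identifier as symbol were left out. The nearest was PTPRN, at a distance of 0.168 log2 units, with 13.4 and 10.7 CPM in the nanoparticle libraries and 6.79 and 7.79 CPM in the PBS libraries. KITLG was next at 0.232, with 27.6 and 30.0 CPM with nanoparticles and 16.2 and 19.1 CPM with PBS. GCLM followed at 0.279, GFI1 at 0.301 and FAT4 at 0.331. With 4 libraries in 2 groups, this measure mainly orders genes by the size of their difference between the groups, and CASP9 entered it through the comparison for which it was chosen.

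**Figure D4:**
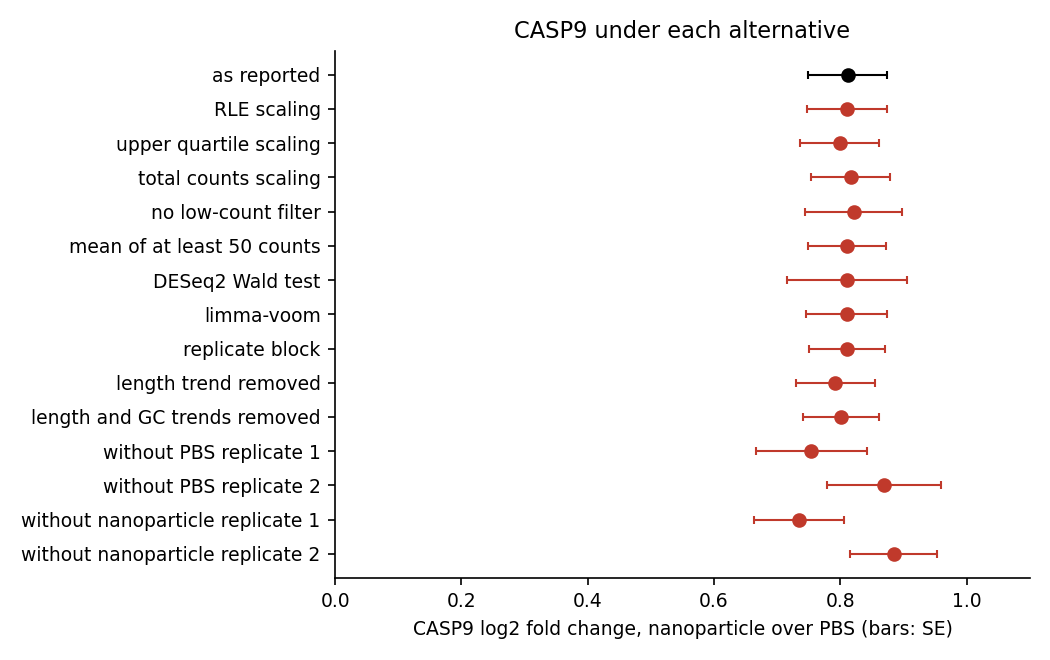
CASP9 log2 fold change of nanoparticle over PBS (horizontal axis, bars are SEs) as reported (black) and under 14 alternative analyses (red). All lie between 0.73 and 0.88, the lowest without nanoparticle replicate 1 and the highest without nanoparticle replicate 2.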

How the data were processed

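Whole-number read counts per Ensembl gene were deposited by the authors, 1 file per library, not normalized. Per the labels' protocols, polyadenylated RNA went into stranded libraries. Per the submitters' processing notes, the build was GRCh38 and HTSeq 2.0.2, STAR 2.7.6a, cutadapt 3.5 and Picard were among the tools. Neither the annotation release nor the strand setting is given in the sources used here. Reads not assigned to a single gene (13.7% to 14.8%) were left out, among them reads ambiguous between genes (4.78% to 4.81%).

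Symbols matched 61369 of 61541 rows. Coordinates and lengths came from GENCODE 29, start windows from RefSeq. The 2 groups were compared in R 4.3.3 by edgeR 4.0.16 after filterByExpr and TMM scaling, with the two-sided quasi-likelihood test (glmQLFit, glmQLFTest) and Benjamini-Hochberg adjustment over 15778 genes at 0.05. CPM and TPM were computed from the counts. Replicates differed beyond sampling noise (chi-square per degree of freedom 1.78 for PBS and 1.95 for nanoparticle), so none was counted as a copy. Counting errors cover counting only.

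The members, lists and tests were chosen with earlier results of these data known. The genes named are all members, the called and the 2 lowest-p genes of each list, the genes within 50 kb of CASP9 and the 5 nearest patterns. The executioner caspases are not reported here. Alternatives were scaling by total counts, RLE or upper quartile, DESeq2 1.42.0, limma-voom (limma 3.58.1), filters at a mean of 50 counts or with no minimum, a replicate block, removal of length or length and GC trends (robust splines, 4 degrees of freedom, MASS 7.3.60.0.1) and leaving out each library. On counts simulated for nanoparticle against PBS (15799 genes tested), 76% of 1.2-fold and 96% of 1.5-fold changes were recovered. Changes were placed only in well-counted genes, and every gene had the same replicate spread. These shares therefore do not cover genes with low counts such as DIABLO, or genes with a larger spread. Figures used matplotlib 3.10.9.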

Additional observations from a re-analysis of the deposited data

How the results depend on the processing

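CASP9 chose the set, so no count of called members is given here. Without a low-count filter the log2 fold change of CASP9 was 0.82. In that fit edgeR called 0 genes of the surrounding lists and 0 genes in all (lowest adjusted p = 0.544, with 2297 genes at an unadjusted p under 0.05). Leaving out 1 library gave CASP9 log2 fold changes from 0.73 to 0.88, 0 to 2 called genes of the lists and 0 to 200 called genes in all. A fit without a PBS library assumes that the lone PBS library varies like the nanoparticle libraries. DESeq2 called 124 genes in all. With the length trend removed 1 gene of the lists and 172 genes in all were called, and 243 in all with length and GC trends removed. Scaling by the upper quartile gave 223 higher and 190 lower genes, against 276 and 131 as reported. With the replicate number as a block, CASP9 had a log2 fold change of 0.81, and 759 genes in all were called. Nothing in the labels pairs the replicates, and the deviations of same-numbered libraries had a correlation of 0.033 across 11130 genes. The 7 other named genes called as reported were called in 67 of 95 alternative values and lost the call in 28. Among them PTPRN, KITLG, GCLM, GFI1 and FAT4 were named for a difference like that of CASP9. The list genes BIRC6 and PTMA were called in 11 and 7 of 14 alternatives. The 20 named genes not called as reported were called in 4 of 272 alternative values, all of BIRC3. No called value changed sign. DESeq2 gave no adjusted p for 10 of the 27, among them PTPRN, GFI1 and FAT4, which were called as reported. Why calls were lost was not tested. Depth limits DIABLO most, and groups of 2 were too small to be screened for outlying libraries.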
